A study of Mus musculus with 10 samples.

Results

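The amino acid transporter families are the plasma membrane and lysosomal carriers that move amino acids, and some related solutes, across cell membranes. Their members were taken here by gene symbol, as the genes of the solute carrier families Slc1, Slc3, Slc6, Slc7, Slc36, Slc38 and Slc43 with the noradrenaline transporter gene Slc6a2 left out. Of 18193 named genes on the array 62 were members, measured by 121 of 45037 probe sets. The symbol match also takes in 3 genes named as opposite-strand transcripts (Slc6a19os, Slc36a1os and Slc7a6os), so that 59 members are transporters or their partner subunits. Urogenital systems, which at this stage hold the growing kidneys, gonads, ducts, adrenal glands and bladder, came from mouse embryos at embryonic day 15.5 and were measured on Affymetrix arrays, 1 array for each RNA pool of 1 to 2 systems. The first group, called homozygous, has the genotype Wnt9b cneo/cneo (5 pools). In the other group, called control (5 pools), the genotype label gives 1 cneo allele beside a normal one, while sample titles and series title call the embryos wild type. The labels give no strain, and the effect of the cneo allele on the gene is not stated in them.

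Amino acid transporters work in polarized pairs in the kidney. In the proximal tubule, carriers of the apical brush border take up filtered amino acids with sodium, protons or by exchange, and carriers of the basolateral membrane pass them on to the blood. Several are made of a heavy chain of the Slc3 family that brings a light chain of the Slc7 family to the membrane, and in humans loss of either chain of the apical cystine carrier causes cystinuria. Other members clear transmitters in nervous tissue or feed growing cells, and Wnt9b is a secreted ligand of the duct epithelium that nephron formation depends on.

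Wnt9b was measured at 103, 179, 47.8, 107 and 201 intensity units in homozygous pools 1 to 5, against 135, 121, 143, 126 and 140.5 in control pools 1 to 5. Homozygous pools were found both above and below the control pools, with a log2 difference of -0.23 ± 0.36 (SE; limma adjusted p = 0.803), and since the altered part of the gene is not given, it does not check the genotype labels. All arrays shared a trimmed mean near 500 units, with medians between 74.7 and 98.6. The share of probe sets at or under the floor of 16 units ran from 19.9% to 21.1% in homozygous pools and from 22.2% to 23.03% in control pools, without overlap. A ratio of 3' to middle actin signal, which is high where RNA is degraded, reached 97.7 in homozygous pool 5 and 94.8 in control pool 1, with at most 33.1 elsewhere. Xist, which coats the silenced X chromosome of female cells, was high in homozygous pools 3, 4 and 5 alone.

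Of 18 transporters of kidney epithelium 12 were lower in homozygous pools, and of 16 transporters of general nutrient uptake 11 were higher. The lists share Slc3a2 and Slc36a1, both among the higher genes. Over all 18193 genes 8392 were lower and 9092 higher. Of the 62 member genes 1 fell, the cystine and acidic amino acid carrier gene Slc7a13, and 1 rose, the neutral amino acid exchanger gene Slc1a4 (limma, Benjamini-Hochberg adjusted p under 0.05 over all genes). That is 3.23% of members, against 0.967% of all genes tested (0.539% higher and 0.429% lower). In 8 members, 12.9%, no homozygous pool overlapped a control pool, against 4.71% of all genes. Every homozygous pool lay below every control pool in Slc7a13, Slc6a20b, Slc3a1, Slc7a9, Slc6a13 and Slc1a1 (2.1% of all genes), and above in Slc1a4 and Slc7a14 (2.61% of all genes). At an unadjusted p under 0.05 there were 16 members, 10 lower and 6 higher, which is 25.8% of them against 15.7% of all genes. The 10 include Slc6a12, also among the 12 lower kidney transporters, which was at the floor in all homozygous pools (exact two-sided permutation p = 0.167).

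Most members differed little. The log2 difference, homozygous minus control, was under 0.5 in size in 45 of the 62 genes and at least 1 in 7, and its median over members was 0.016, against 0 over all genes. In 39 members the 95% interval of the difference lay within 1 of 0, so a change of more than 2-fold was outside it. The 39 include Slc1a7, Slc6a5, Slc6a12, Slc6a16, Slc6a19os, Slc6a21 and Slc7a15, each at the floor on 5 or more arrays. In these genes, which are also among the 45, the floor makes the difference small and the interval narrow, so no change can be judged. Of the members 44 were above the floor on all arrays, 10 were at the floor on 1 to 4 arrays and 8 on 5 or more, and Slc7a15 was at the floor on all 10. Among families, Slc6 had 15 of 20 genes lower, against 8392 of 18193 over all genes. The 15 include Slc6a5, Slc6a12, Slc6a14, Slc6a16 and Slc6a21, at the floor on 5 or more arrays. The Slc6 median was -0.19 and no gene of the family passed the threshold. The medians were 0.25 for the 7 Slc1 genes, 0.06 for the 16 Slc7 genes, 0.12 for the 9 Slc38 genes, 0.09 for the 5 Slc36 genes, 0.14 for the 3 Slc43 genes and -0.56 for both Slc3 genes.

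**Figure D1:**
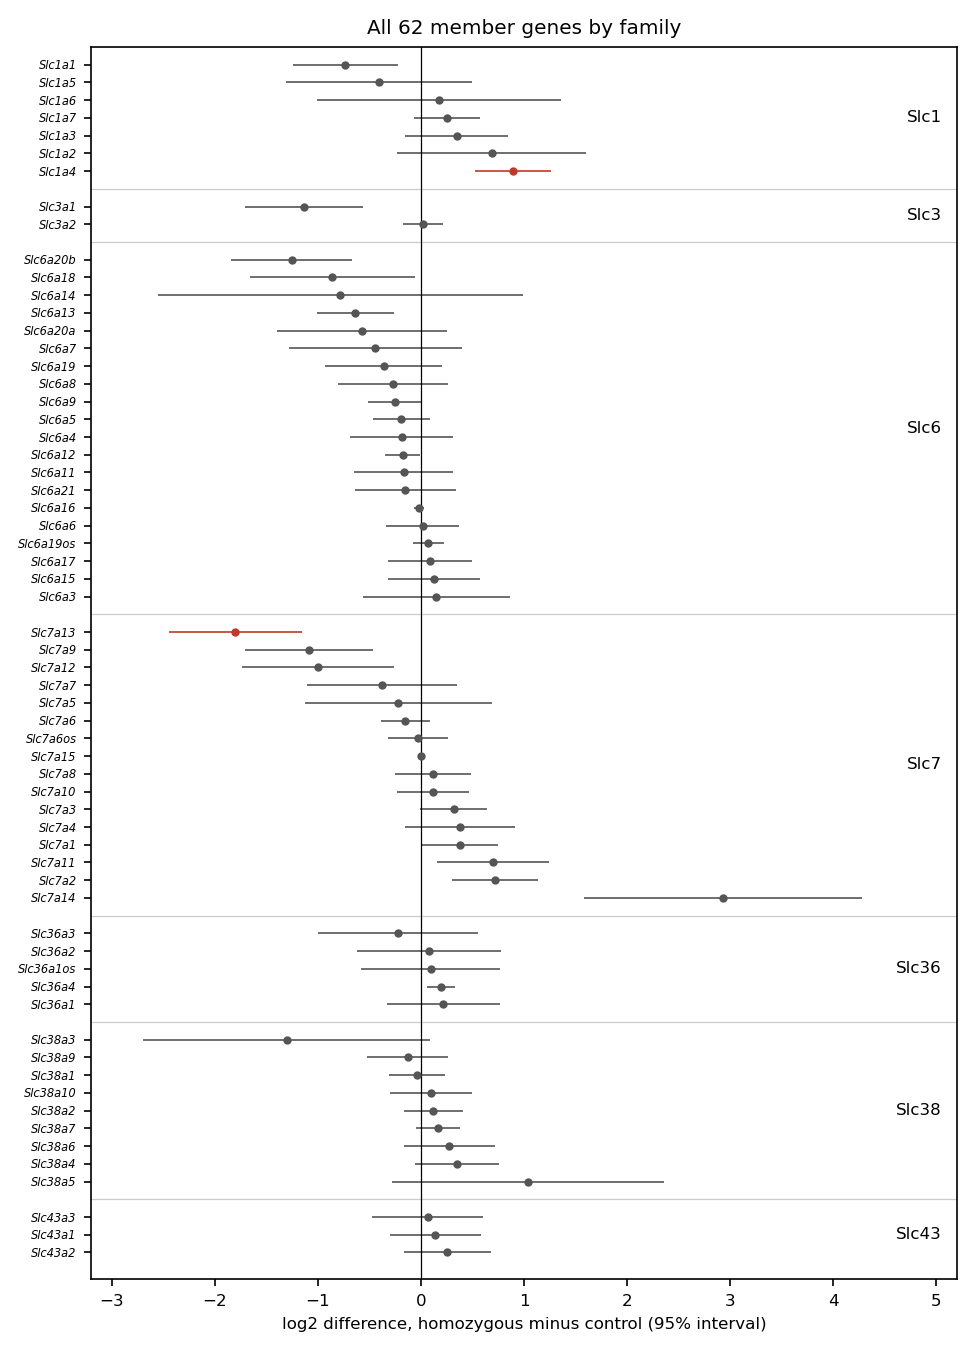
Difference in mean log2 intensity, homozygous minus control, for each of the 62 member genes, sorted within family; points are the limma estimates from 5 pools a group, bars their 95% intervals, and red marks the genes past the threshold. Slc7a13 at -1.80 and Slc1a4 at 0.89 are the red points, and Slc7a14 at 2.93 lies farthest to the right with a wide interval.

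The apical cystine system was lower in homozygous pools in both its chains and in the second light chain. Slc3a1 encodes rBAT, the heavy chain that anchors the carrier in the brush border. It had 112, 106, 113, 204 and 134 intensity units in homozygous pools 1 to 5, against 408, 249, 362, 250.4 and 204 units in control pools 1 to 5. All homozygous pools lay below the control pools, though homozygous pool 4 and control pool 5 were nearly level. The log2 difference was -1.14 ± 0.25 (SE), a ratio of 0.455 homozygous over control, with a limma adjusted p of 0.0729 that missed the threshold. Slc7a9 encodes the light chain b(0,+)AT, which exchanges cystine and basic amino acids for neutral ones. Its intensities were 173, 290.3, 133, 317 and 199 in homozygous pools, against 572, 325, 589.6, 426 and 391 in control pools. The groups did not overlap, with homozygous pool 4 just under control pool 2, and the log2 difference was -1.09 ± 0.28 (SE; limma adjusted p = 0.0963).

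Slc7a13 encodes AGT1, the other light chain of rBAT, which carries cystine, aspartate and glutamate in the last segment of the mouse proximal tubule. Its intensities were 57.1, 81.5, 43.3, 90.4 and 39.4 in homozygous pools and 174, 184, 313, 215 and 171 in control pools. All homozygous pools lay well below all control pools. Slc7a13 fell by 1.80 ± 0.29 on the log2 scale (SE), with group means of 5.88 ± 0.53 in homozygous pools and 7.68 ± 0.36 in control pools (SD, n = 5 each), a ratio of 0.287. The limma adjusted p was 0.0364 and the exact two-sided permutation p 0.00794, the smallest that 5 against 5 pools can give. Its dimmer second probe set, at the floor on 2 arrays, differed by 0.45. The call was lost without homozygous pool 1, 3 or 5 or without control pool 1, 3, 4 or 5 (limma adjusted p from 0.066 to 0.102), while the log2 difference stayed between -1.95 and -1.65 over all fits that left out 1 pool. It was -1.72 without both arrays of high actin signal (limma adjusted p = 0.0835), -1.59 without the 3 Xist-high pools (limma adjusted p = 0.242) and -0.68 as the mean of its probe sets (limma adjusted p = 0.152), where over all alternatives adjusted p ran from 0.0185 to 0.309.

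Promoters of Slc3a1 and Slc7a9, the chains of the cystine carrier that were lower together, are shown because HNF1 and HNF4 are transcription factors of the proximal tubule and Hnf4a fell in these pools (log2 difference -1.51, limma adjusted p = 0.0295). The windows run from 250 bases before to 50 after a RefSeq start (GRCm38.p6), with matches to the HNF4 core CAAAGTC or the HNF1 half-site GTTAAT, on either strand, in capitals.
Slc3a1, chr17:85028097-85028396, plus strand: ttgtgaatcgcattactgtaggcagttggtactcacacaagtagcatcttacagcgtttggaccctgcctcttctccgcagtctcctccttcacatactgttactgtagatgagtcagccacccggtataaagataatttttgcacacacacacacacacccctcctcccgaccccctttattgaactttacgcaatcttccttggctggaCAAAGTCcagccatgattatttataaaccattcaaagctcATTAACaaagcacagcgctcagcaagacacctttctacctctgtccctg
Slc7a9, chr7:35448842-35449141, plus strand: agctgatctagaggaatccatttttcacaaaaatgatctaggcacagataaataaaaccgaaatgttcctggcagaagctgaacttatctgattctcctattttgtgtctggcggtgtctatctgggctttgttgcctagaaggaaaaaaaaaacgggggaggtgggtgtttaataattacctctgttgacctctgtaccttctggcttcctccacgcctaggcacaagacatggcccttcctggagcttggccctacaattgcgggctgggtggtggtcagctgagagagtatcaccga
The Slc3a1 window held the HNF4 core beginning at base -39 and the HNF1 half-site, on the strand opposite the transcript, at base +2. The Slc7a9 window shown, which is not the only one of that gene, held neither motif. Among the 25 windows of kidney epithelial transporters 5 held the HNF1 half-site (20%) and 2 the HNF4 core (8.0%), against 7.1% and 4.44% of all 32851 promoter windows. A match is a string of letters and not a binding site, and the part of HNF1 or HNF4 in the transporter differences was not tested. Hnf4a is itself among the proximal tubule markers described below. A window was available for 46 of the 62 members, and Slc7a13 had none.

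**Figure D2:**
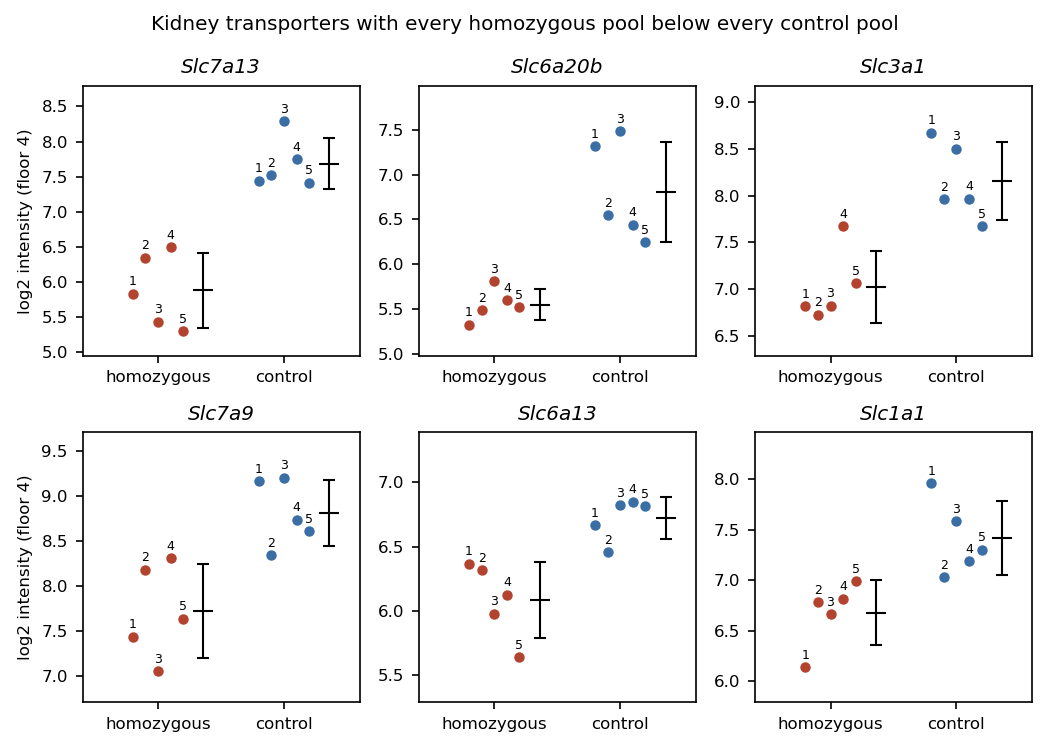
Intensity on a log2 axis in each pool, numbered, of the 6 members whose homozygous pools (left) all lay below the control pools (right), with group mean and SD. Slc7a13 shows the widest gap between groups, and in Slc3a1, Slc7a9, Slc6a13 and Slc1a1 the nearest pools of both groups almost meet.

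The Slc6 family, sodium-driven carriers, had 15 of its 20 genes lower in homozygous pools and none past the threshold. Over all genes tested 8392 of 18193 were lower. Of the lower Slc6 genes, Slc6a5, Slc6a12, Slc6a14, Slc6a16 and Slc6a21 were at the floor on 5 or more arrays, so their direction carries little. Slc6a20b belongs to a pair of adjoining mouse genes for imino acid carriers of the SIT1 kind, which take up proline and related compounds. It had 40.2, 44.9, 56.1, 48.5 and 46.1 units in homozygous pools, against 159, 93.7, 179, 86.9 and 75.8 in control pools. The homozygous pools were alike and all below the control pools, with a log2 difference of -1.26 ± 0.26 (SE; limma adjusted p = 0.0605). The second probe set of Slc6a20b also separated the groups and differed by -2.06, with 2 homozygous arrays at the floor. Its neighbour Slc6a20a, from which shared signal cannot be told apart here, had 28.7 and 41.7 units in homozygous pools 1 and 5 and was at the floor in the other 3. In control pools Slc6a20a had 42.4, 35.4, 36.2 and 41.1 units in pools 1, 3, 4 and 5 and was at the floor in pool 2, so the groups overlapped (log2 difference -0.57 ± 0.36, SE; limma adjusted p = 0.507).

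Slc6a18 and Slc6a19, which adjoin each other in the genome, encode B(0)AT3 and B(0)AT1, the apical carriers of neutral amino acids. Slc6a18 had 47.1, 114, 92.2, 115 and 189.9 units in homozygous pools, against 226, 155, 214, 221 and 129 in control pools. Homozygous pool 5 alone exceeded control pools 2 and 5, and the log2 difference was -0.86 ± 0.35 (SE; limma adjusted p = 0.282). Slc6a19 had 53.0, 56.8, 46.1, 39.5 and 53.8 units in homozygous pools and 117, 57.5, 53.6, 65.4 and 43.6 in control pools. These ranges overlapped, control pool 1 being the only one far above the rest, and the difference was -0.36 ± 0.25 (SE; limma adjusted p = 0.55). Both carriers depend on collectrin to reach the brush border. Its gene Cltrn averaged 9.17 ± 0.55 in homozygous pools and 10.60 ± 0.54 in control pools (log2, SD, n = 5 each), a difference of -1.43 ± 0.33 (SE; limma adjusted p = 0.0753) with no overlap between groups.

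Slc6a13 encodes GAT2, a carrier of GABA and taurine in the proximal tubule. It measured 82.5, 79.7, 63.0, 69.8 and 49.8 units in homozygous pools, against 102, 87.7, 113, 115 and 113 units in control pools. Every homozygous pool was lower, by a narrow margin between homozygous pool 1 and control pool 2, and the log2 difference was -0.64 ± 0.17 (SE; limma adjusted p = 0.102). Slc6a12, its neighbour in the genome, encodes the betaine carrier BGT1. It was under the floor in all 5 homozygous pools and in control pools 1 and 3, and had 21.4, 18.8 and 19.0 units in control pools 2, 4 and 5, so no level can be compared. Slc6a6, the taurine carrier gene, had 1462, 1649, 1585, 1691 and 2066 units in homozygous pools and 2358, 1502, 1811, 1420.2 and 1395 in control pools. Its ranges overlapped widely (log2 difference 0.01 ± 0.16, SE; limma adjusted p = 1). A dimmer probe set of Slc6a6, never at the floor, differed by -1.06. The remaining ones, at the floor on 7 and 8 arrays, differed by 0.45 and 0.27.

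Slc1a1 encodes EAAC1, the apical carrier of glutamate and aspartate. Its intensities were 70.4, 109.8, 101, 113 and 127 in homozygous pools, against 249, 131, 192, 146 and 158 in control pools. Homozygous pool 5 nearly reached control pool 2 without overlap, and the log2 difference was -0.73 ± 0.23 (SE; limma adjusted p = 0.153). A second probe set of Slc1a1 differed by -0.48 and the last was at the floor on all arrays.

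Basolateral and proton-coupled carriers showed no shared direction. Slc38a3 encodes SNAT3, which takes up glutamine for ammonia production in the proximal tubule. It had 42.8, 54.0 and 18.9 units in homozygous pools 1, 2 and 4 and was at the floor in pools 3 and 5, against 54.8, 89.6, 105 and 125 units in control pools 2 to 5 and the floor in pool 1. The groups overlapped only through control pool 1, with a log2 difference of -1.31 ± 0.62 (SE; limma adjusted p = 0.353). Slc7a7, the light chain y(+)LAT1 that exports basic amino acids, had 142, 112, 131, 149 and 64.6 units in homozygous pools and 77.7, 204, 169, 177 and 157 in control pools. Apart from control pool 1 its control pools were all above the homozygous pools, and the difference was -0.38 ± 0.32 (SE; limma adjusted p = 0.637).

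The heavy chain of the basolateral exchangers, 4F2hc, comes from Slc3a2, which also serves carriers of growing cells. It had 2084, 2270.4, 2025, 1901 and 1740.0 units in homozygous pools and 1876, 1832, 2274, 1846 and 2062 in control pools. These sets covered the same range, and the interval of the log2 difference ran from -0.18 to 0.21. Slc7a8, the light chain LAT2, had 331, 339.7, 409.8, 253 and 253 units in homozygous pools and 263, 244, 343, 304 and 298 in control pools, which overlapped (log2 difference 0.11 ± 0.16, SE; limma adjusted p = 0.779). Slc43a2, which encodes the basolateral uniporter LAT4, had 423, 408, 583, 458 and 544 units in homozygous pools and 623, 355, 371, 329.6 and 382 in control pools. Except for control pool 1 its control pools were below every homozygous pool, with a difference of 0.26 ± 0.19 (SE; limma adjusted p = 0.571). A dimmer probe set of Slc43a2 differed by -0.24, and the last was at the floor on all 10 arrays.

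The proton-coupled carriers PAT1 and PAT2 move glycine and proline. Slc36a1, for PAT1, had 362, 353, 314, 278 and 216 units in homozygous pools and 152, 348, 246, 301 and 294 in control pools. Slc36a2, for PAT2, had 40.1, 42.0, 49.98, 48.8 and 61.3 units in homozygous pools and 61.6, 65.3, 22.5, 62.4 and 33.9 in control pools. Both overlapped between groups, with log2 differences of 0.21 ± 0.24 and 0.08 ± 0.31 (SE; limma adjusted p = 0.711 and 0.95).

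Taken as a list, the 18 kidney epithelial transporters held 1 gene that fell, Slc7a13, and 17 that did not pass. Of the 18 genes 12 were lower and 6 higher, with a median log2 difference of -0.48, against 0 over all genes and 0.016 over all members. Their mean log2 intensity was 6.84, 6.99, 6.79, 6.93 and 6.86 in homozygous pools 1 to 5, against 7.45, 7.28, 7.54, 7.47 and 7.33 in control pools 1 to 5. The groups did not overlap, and the spread within a group was small beside the gap. Without the 3 Xist-high pools the list median was -0.31. Of the 10 proximal tubule markers 6 fell (Hnf4a, Fut9, Cubn, Slc34a1, Lrp2 and Pdzk1), with a list median of -1.31. Slc22a6, Slc22a8 and Slc5a2 were lower without passing, and Aqp1 was higher (log2 difference 0.17, limma adjusted p = 0.903). None of the 10 markers was at the floor on any array. Their summed intensity was 2727 to 4262 in homozygous pools and 7106 to 10515 in control pools. The transporter mean minus the marker mean was -1.17 ± 0.21 in homozygous pools and -1.80 ± 0.18 in control pools (log2, SD, n = 5 each). As list means, the transporters were thus lower by less than the markers. Unlike the marker list, the transporter list holds genes at the floor on some arrays (Slc6a12, Slc6a20a and Slc38a3). It also holds Slc3a2 and Slc6a6, which differed by 0.02 and 0.01, and the part of these genes in the smaller fall was not tested. In RNA from whole urogenital systems, fewer tubule cells and less transporter mRNA per cell cannot be told apart. Markers of other tissues also differed in these pools, though none of the following passed the threshold. The median log2 difference was -0.86 for nephron progenitor markers (5 of 5 lower), 2.15 for smooth muscle (5 of 5 higher), 2.55 for adrenal cortex (7 of 7 higher) and 1.49 for skeletal muscle (6 of 6 higher), and their part in the transporter values was not tested.

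**Figure D3:**
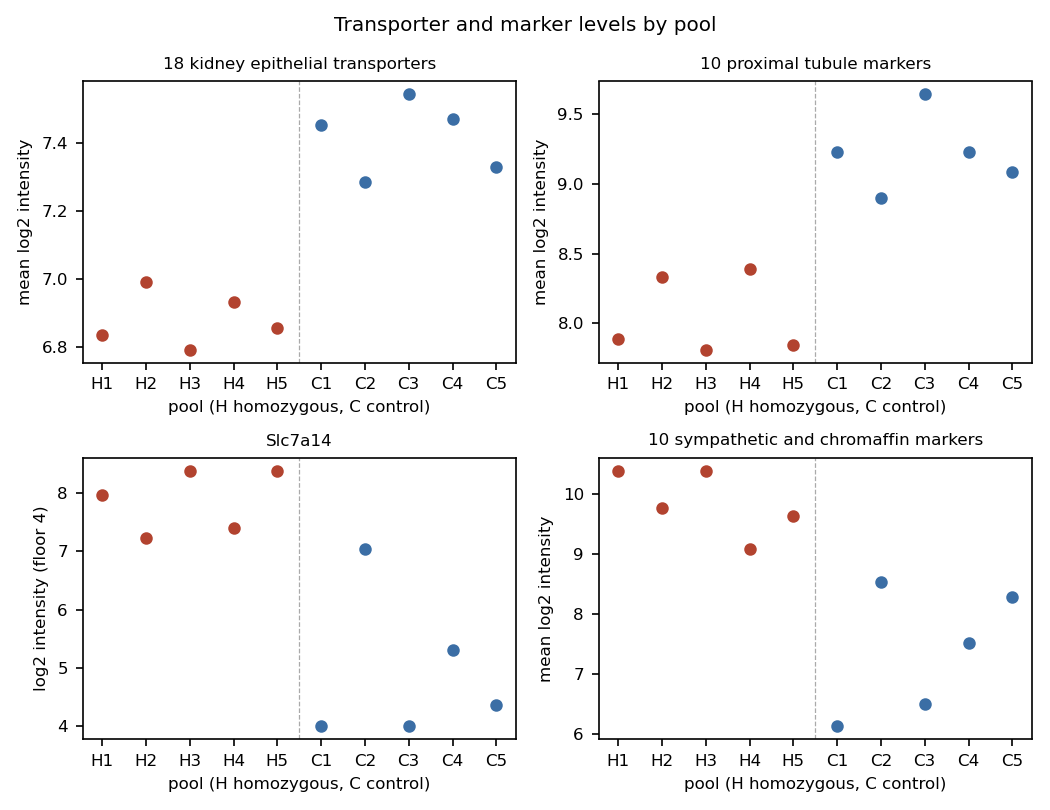
Values per pool on log2 axes for homozygous pools (left) and control pools (right), in 4 panels for the mean of 18 kidney epithelial transporters, the mean of 10 proximal tubule markers, Slc7a14, and the mean of 10 sympathetic neuron and chromaffin markers. The upper pair separates the groups downward, from 6.79 to 6.99 against 7.28 to 7.54 for the transporters, and the other pair upward.

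After each genotype's mean was subtracted, the members most like Slc7a13 over the 10 arrays were Slc6a9, a glycine carrier gene (Pearson r = 0.77, permutation p = 0.0132; Spearman rho = 0.62, permutation p = 0.0613), Slc7a9 (r = 0.74, permutation p = 0.0191; rho = 0.71, permutation p = 0.0277) and Slc1a5 (r = 0.65, permutation p = 0.0444; rho = 0.82, permutation p = 0.00598). None of the 60 relations passed adjustment (lowest adjusted p = 0.484 for r and 0.359 for rho). Without the pools farthest from the median, homozygous pool 4 and control pool 3, r was 0.72, 0.54 and 0.69 for these genes in the same order.

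Slc1a4 was the member that rose. It encodes ASCT1, an exchanger of alanine, serine, cysteine and threonine that supplies serine to the developing nervous system among other tissues. Its intensities were 524, 380.1, 662, 518 and 465 in homozygous pools, against 223, 330.1, 247, 291 and 271 in control pools. Homozygous pool 2 and control pool 2 were the nearest, and no pool overlapped. The group means were 8.97 ± 0.29 in homozygous pools and 8.08 ± 0.22 in control pools (log2, SD, n = 5 each), a rise of 0.89 ± 0.16 (SE) or 1.86-fold. The limma adjusted p was 0.0473 and the exact two-sided permutation p 0.00794. Its dimmer probe sets, which were at the floor on 2 and 8 arrays, differed by 0.13 and 0.25. The call held in the fits without homozygous pool 2 or control pool 2 and was lost without any other single pool (limma adjusted p from 0.078 to 0.137), with log2 differences of 0.79 to 0.99 throughout. It was 0.85 without both arrays of high actin signal (limma adjusted p = 0.104), 0.73 without the 3 Xist-high pools (limma adjusted p = 0.394) and 0.42 as the mean of its probe sets (limma adjusted p = 0.306), where over all alternatives adjusted p ran from 0.0179 to 0.394.

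The promoter of Slc1a4 is shown because the gene is a known target of ATF4, the factor of the amino acid response, whose composite element with C/EBP is written TGATGNAA. The match, on the strand opposite the transcript and in capitals, begins at base -4.
Slc1a4, chr11:20332664-20332963, minus strand: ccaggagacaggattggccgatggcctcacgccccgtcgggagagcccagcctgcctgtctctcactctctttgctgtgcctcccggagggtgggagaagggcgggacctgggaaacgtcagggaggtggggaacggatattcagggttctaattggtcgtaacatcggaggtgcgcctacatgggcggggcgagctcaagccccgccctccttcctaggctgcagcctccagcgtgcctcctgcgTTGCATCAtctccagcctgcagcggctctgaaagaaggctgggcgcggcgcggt
This element was in windows of 4 of the 46 member genes, Slc1a4, Slc7a11, Slc6a21 and Slc7a7 (8.7%), against 4.51% of all genes with a window. Among 17 measured amino acid response genes none passed the threshold, 11 were higher and 6 lower, and the median was 0.13. Ddit3, a stress-induced factor gene, differed by 0.43 (limma adjusted p = 0.23) and Phgdh, for the first enzyme of serine synthesis, by -0.46 (limma adjusted p = 0.196).

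Slc7a14 had the largest difference of any member and did not pass. It encodes a lysosomal membrane protein of the cationic amino acid carrier group that is expressed in nervous tissue. Its intensities were 252, 150.2, 334, 169 and 333 in homozygous pools. In control pools 2, 4 and 5 they were 132, 39.5 and 20.5, and control pools 1 and 3 were at the floor. The homozygous pools were all above the control pools, but control pool 2 nearly reached homozygous pool 2. The log2 difference was 2.93 ± 0.60 (SE; limma adjusted p = 0.0583), which the floor understates, and a second probe set at the floor on 7 arrays differed by 0.21. Without control pool 2 Slc7a14 passed, with a difference of 3.46 (limma adjusted p = 0.0147), and without any other single pool it did not. Over all alternatives it passed in 3 of 21. The difference ran from 1.57 to 3.46 there, and the limma adjusted p from 0.0147 to 0.474.

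Of 10 measured markers of sympathetic neurons and the adrenal medulla 9 were also higher in homozygous pools, with Gata3, which the kidney ducts express too, at -0.60, and none passed the threshold. The mean log2 intensity of 10 sympathetic neuron and chromaffin markers was 10.38, 9.77, 10.39, 9.08 and 9.63 in homozygous pools 1 to 5, against 6.13, 8.53, 6.51, 7.51 and 8.28 in control pools 1 to 5. The order of pools in this mean and in Slc7a14 matched in part: control pools 1 and 3 were lowest and control pool 2 highest in both, but control pools 4 and 5 changed places, and among homozygous pools the lowest was pool 4 in the markers and pool 2 in Slc7a14. None of these markers was at the floor on any array. Every homozygous pool lay above every control pool in 4 of the 10, against 2.61% of all genes. Their summed intensity was 8677 to 22281 in homozygous pools and 1446 to 6129 in control pools. Their part in the Slc7a14 difference was not tested. Markers of Schwann and satellite glia summed to 2588 to 5148 units in homozygous pools and 1316 to 4135 in control pools, so these overlapped.

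**Figure D4:**
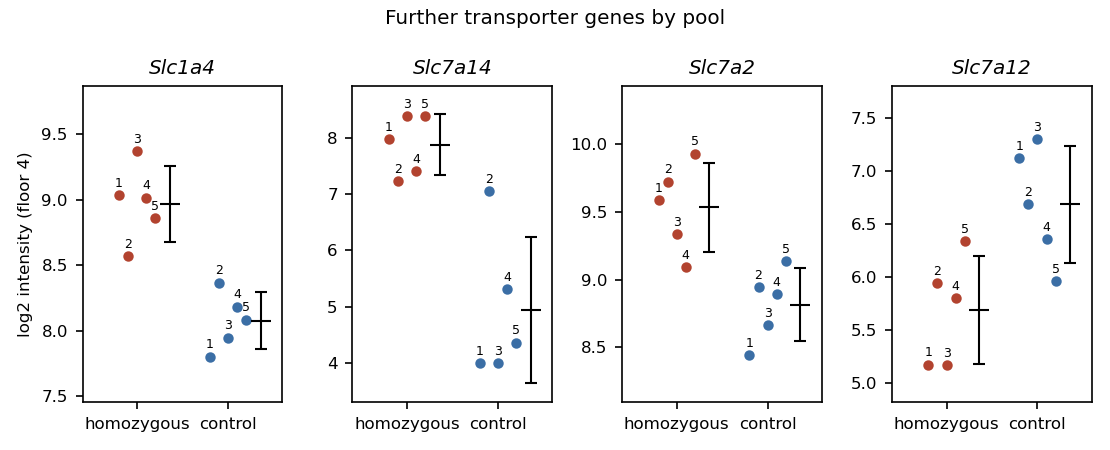
Intensity on a log2 axis in each pool, numbered, of Slc1a4, Slc7a14, Slc7a2 and Slc7a12, homozygous pools on the left and control pools on the right, with group mean and SD. Slc1a4 and Slc7a14 separate the groups upward, while Slc7a2 (higher) and Slc7a12 (lower) overlap in at least 1 pool.

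Among the 16 general nutrient uptake transporters Slc1a4 rose and 15 genes did not pass, 11 being higher and 5 lower with a median of 0.17. Their mean log2 intensity was 9.35 to 9.49 in homozygous pools and 9.16 to 9.31 in control pools, without overlap. The cationic carrier genes Slc7a2, chosen for description after its values were seen, and Slc7a1 import arginine and lysine. Slc7a2 had 769.8, 845, 646, 546 and 975 units in homozygous pools, against 348, 493, 405, 475 and 562 in control pools. Homozygous pool 4 alone lay under control pool 5, and the difference was 0.72 ± 0.18 (SE; limma adjusted p = 0.0974). Dimmer probe sets of Slc7a2 differed by 0.90, 0.36 and -0.21, the last at the floor on 7 arrays. Slc7a1 differed by 0.38 and Slc7a3, the third cationic carrier gene, by 0.32, and Slc36a4, which encodes a carrier of proline and tryptophan, by 0.19. A second probe set of Slc7a1, never at the floor, differed by -0.01, and its dimmest, at the floor on 6 arrays, by 0.14. Slc7a11, the light chain of the cystine and glutamate exchanger, differed by 0.69 at intensities of 26.4 to 45.4 in homozygous pools and 3.57 to 35.5 in control pools. The glutamine carriers of the Slc38 family stood at 0.12 for Slc38a2, -0.04 for Slc38a1, 0.35 for Slc38a4 and -0.13 for Slc38a9, a lysosomal amino acid sensor. The second probe set of Slc38a4, never at the floor, differed by 0.07. The neutral amino acid carriers Slc1a5 and Slc7a5 differed by -0.40 and -0.22, Slc7a6 by -0.16 and Slc43a1 by 0.14. Of 5 macrophage markers Adgre1 and Csf1r rose in the same pools, C1qb (0.46, limma adjusted p = 0.117) and Cd68 (-0.23) did not pass, and C1qa was at the floor on all arrays. They summed to 2948 to 3867 units in homozygous pools and 2187 to 2406 in control pools, and their part in these differences was not tested.

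The transmitter and glial carriers did not differ detectably. Of 13 measured genes of this list none passed limma at an adjusted p under 0.05 and 1 had an unadjusted p under 0.05, Slc6a9 at -0.26. The median was 0.11, and the differences ran from -0.44 for Slc6a7, a proline carrier of neurons, to 0.68 for Slc1a2, the glial glutamate carrier. Slc1a3, also glial, differed by 0.35, the serotonin carrier gene Slc6a4 by -0.19, the GABA carrier gene Slc6a11 by -0.17 and the dopamine carrier gene Slc6a3 by 0.15. Dimmer probe sets of Slc1a3 differed by 0.53, 0.68, 0.06, -0.14 (floor on 5 arrays) and 0 (floor on 10). Those of Slc1a2 differed by 0.06, 0.15, 0 and 0, and the second of Slc6a9 by 0.19. In a fit over all probe sets, 0 member probe sets passed the threshold. Slc1a6, Slc6a15, Slc6a17 and Slc7a10 lay between 0.09 and 0.17. Slc6a5 and Slc1a7 were at the floor on most arrays. The vesicular loading list, 5 genes that make or pack GABA and glutamate, held no gene past the threshold. Gad2 differed by 0.46 (limma adjusted p = 0.161) with 4 control arrays at the floor, and Slc32a1 by 0.68 (limma adjusted p = 0.387) with all 5 control arrays there.

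Of the members on none of these lists, Slc7a12 was the lowest and, like Slc38a5, was picked for description after its values were seen. Slc7a12 encodes a carrier of small neutral amino acids found in mouse kidney. It had 36.01, 61.3, 35.9, 55.6 and 80.9 units in homozygous pools and 139, 103, 157, 81.7 and 62.1 in control pools. Control pool 5 fell within the homozygous range, and the difference was -0.9996 ± 0.32 (SE; limma adjusted p = 0.172). Slc38a5, for the glutamine carrier SNAT5, had 147, 97.6, 69.6, 102 and 45.6 units in homozygous pools, against 18.5, 83.0, 51.5 and 101 in control pools 2 to 5 and the floor in control pool 1. These ranges overlapped (log2 difference 1.04 ± 0.59, SE; limma adjusted p = 0.453). The creatine carrier gene Slc6a8 differed by -0.28, Slc38a6 by 0.28, Slc38a7 by 0.17, Slc38a10 by 0.10, Slc7a4 by 0.38, Slc36a3 by -0.23 and Slc43a3 by 0.07. The opposite-strand genes differed by 0.07 (Slc6a19os), 0.09 (Slc36a1os) and -0.03 (Slc7a6os). Slc6a16 and Slc6a21 were mostly at the floor.

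Renal enzymes of amino acid breakdown and synthesis were mostly lower, 15 of 18 measured genes against 3 higher. Of these 2 fell, 1 rose and 15 did not pass, and the median was -0.39. Their mean log2 intensity was 6.42 to 6.74 in homozygous pools and 6.75 to 7.16 in control pools, without overlap. Gldc, for the glycine cleavage system, fell by 0.90 on the log2 scale (limma adjusted p = 0.0426) and Aspa, which splits N-acetylaspartate, fell by 1.16 (limma adjusted p = 0.0454). Tat, for tyrosine aminotransferase, rose by 1.24 (limma adjusted p = 0.00475). All 5 control arrays of Tat were at the floor, so its difference is understated and lies where the share of floored probe sets also separated the groups. The floored arrays have an SD of 0, which makes the standard error and the p-value of Tat too small. How secure its call is cannot be judged from that p-value. Of 9 measured partners and other carriers none passed, 6 were lower and 3 higher, and the median was -0.21. Beside Cltrn the smallest p belonged to Dpep1, a brush border dipeptidase gene, at 1.12 (limma adjusted p = 0.178).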

How the data were processed

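Total RNA of 10 pools of urogenital systems, 5 homozygous and 5 control, was hybridized to Affymetrix mouse 430 2.0 arrays. The deposited table holds the authors' linear intensity per probe set, scaled to an equal trimmed mean across arrays; how probe sets were summarized, and with which software, is not given in the sources used here. The series design text describes another stage, tissue and Wnt9b allele, so groups follow the sample labels. For this work 64 control probe sets were left out, 34945 probe sets with 1 platform symbol were named (932 had several, 9160 none), intensities under 16 were set to 16, and log2 was taken. The probe set with the highest mean represented each gene. Levels of different probe sets were not compared, apart from the transporter mean minus the marker mean in each pool. Genotypes were compared over all 18193 genes with limma 3.58.1 in R 4.3.3 (lmFit, eBayes with trend), two-sided, Benjamini-Hochberg adjusted p under 0.05, no block; the procedure was tested on simulated data. Single values were also given an exact permutation test. No arrays were duplicates of each other. The labels name distinct RNA pools without saying whether litters differed, so p-values reflect pool-to-pool spread, and precision is limited by 10 arrays. Same-numbered pools did not deviate together (correlations -0.55 to -0.17), and no pairing by number was used. Deviations were taken from each group's mean, so these correlations cannot show whether a number marks a shared litter or batch. The members and lists were chosen with earlier results of these data known. Values per pool are given for members past the threshold, members whose groups did not overlap and all kidney epithelial transporters; further genes so described are named as chosen later. Pathway genes named are those past the threshold, or those with the smallest p where under 2 passed. Promoter sequences are from RefSeq (GRCm38.p6). Alternatives concerned the probe set per gene, floor, offset, dim genes, normalization, block, variance model, array weights and leaving out pools.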

Additional observations from a re-analysis of the deposited data

Results flagged for a closer look

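In 14 of 118 tested sets of 5 pools, 1 pool of a member gene stood apart from the rest of its group. The test was Dixon's, with 0.710 as the limit for 5 samples, and chance flags about 1 in 20. Where the rest of a group all sat at the floor, the remaining pool is flagged by construction, so this rate does not apply. That was so for Slc1a7, Slc6a16, Slc6a19os and, in homozygous pools, Slc6a14. Values are log2 intensities. Control pool 1, an array with a high actin ratio, was the separate one 5 times. It was above the other control pools in Slc7a1 (11.34), Slc43a2 (9.28) and Slc38a2 (13.25), and below them in Slc7a7 (6.28) and Slc1a5 (7.47). Homozygous pool 5, the other array of this kind, was low in Slc6a8 (9.06) and high in Slc6a14 (4.35) and Slc6a11 (4.77), both near the floor. Control pool 2 was high in Slc6a14 (8.17) and Slc6a16 (4.11) and at the floor of 4 in Slc6a20a. Homozygous pool 4 was high in Slc7a3 (7.88). Near the floor, homozygous pool 2 stood out in Slc6a19os (4.36) and control pool 3 in Slc1a7 (4.21). The part of RNA quality in these values was not tested.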

How the results depend on the processing

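Over 22 alternatives the log2 difference of Slc7a13 was negative wherever it was tested (-1.95 to -0.68, past the threshold in 9 of 21) and that of Slc1a4 positive (0.42 to 0.99, past it in 7 of 22). The count of members that rose, 1 as reported, was 0 with the mean of probe sets per gene, with a fit over all probe sets, with a floor of 32, with median centring, without both high actin ratio arrays and also without the 3 Xist-high pools; it was 2 with log2(value + 16) and with array weights. The count of members that fell, also 1, was 0 with the mean of probe sets, over all probe sets, without the high actin ratio arrays and also without the Xist-high pools, and 2 with array weights. With the replicate number as a block, which the labels do not support as a pairing, 0 members rose and 0 fell, 1 gene passed of all, and the adjusted p was 0.309 for Slc7a13 and 0.347 for Slc1a4. Leaving out single pools gave 0 to 2 members that rose, 0 or 1 that fell, a member median of -0.025 to 0.019 and a kidney epithelial median of -0.55 to -0.44. The number of all genes that passed ran from 1 to 951. With the dimmest 40% of genes left out, which kept 32 members and 10 kidney epithelial transporters and dropped Slc7a13, the medians were 0.076 and -0.18 and Slc3a1 passed (adjusted p = 0.0419). Without the Xist-high pools the kidney epithelial median was -0.31. Slc7a14 passed with log2(value + 16), array weights and without control pool 2, and Slc6a13 with array weights. Among the 20 members for which alternatives were run gene by gene, the sign turned in 3, all with differences near 0. Slc6a6 was -0.082 with the mean of probe sets, -0.036 with median centring and -0.099 without the Xist-high pools. Slc36a2 was -0.023 with a floor of 32, -0.055 with quantile normalization and -0.14 without the Xist-high pools, and Slc3a2 was -0.032 with median centring. Without single pools Slc6a6 ran from -0.061 to 0.14, Slc36a2 from -0.17 to 0.21 and Slc3a2 from -0.028 to 0.070. The cause of these shifts was not tested, apart from the smaller number of pools or genes that some settings use by construction.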

Other observations

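Slc6a14, the gene of a broad apical carrier of neutral and basic amino acids, was bright in a single pool. It measured 288 units in control pool 2, against 0.389 to 17.2 units in the other control pools and 9.91 to 20.4 units in homozygous pools. Control pool 2 was also the control pool with the highest Slc7a14.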
